A study of Mus musculus with 18 samples.

Results

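The small leucine-rich proteoglycans are secreted matrix proteins, and 8 of their genes were followed by symbol through embryonic mouse heart: Dcn (decorin), Bgn (biglycan), Aspn (asporin), Fmod (fibromodulin), Lum (lumican), Prelp, Omd (osteomodulin) and Ogn (osteoglycin). Each symbol matched 1 of the 49315 gene identifiers that were counted. RNA was sequenced from hearts dissected from wild-type C57BL/6 embryos at 5 stages, embryonic day 9.5 (E9.5, 3 libraries), E10.5 (4), E12.5 (4), E14.5 (3) and E16.5 (4). All 18 libraries are labelled as RNA of male and female embryos pooled, and all share the strain and genotype, with no treatment. No label states that the libraries of 1 stage are from different litters, and p-values therefore reflect differences among these samples that may partly be technical. The comparisons ask in which interval each proteoglycan gene changed in the growing heart. The interval from E9.5 to E10.5 is shorter than the later ones between neighbouring stages, and no value is given per day.

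The core protein of these proteoglycans is a curved solenoid of leucine-rich repeats that binds collagen fibrils and governs their thickness and spacing. Dcn, Bgn and Aspn form class I, in which decorin and biglycan carry chondroitin or dermatan sulphate chains and asporin carries a run of aspartate in place of a chain. Fmod, Lum, Prelp and Omd form class II, whose members other than Prelp can carry keratan sulphate, and Ogn belongs to class III. In the heart they are products of fibroblasts, valve cells and vessel walls, and several also bind growth factors such as TGF-beta.

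Of the 8 genes, 7 lie in 3 clusters in the mouse assembly GRCm38, with no other protein-coding gene lying wholly between neighbours. On chromosome 10, Dcn (ENSMUSG00000019929, 97479609 to 97518143, plus strand) lies 46984 bases before Lum (ENSMUSG00000036446, 97565128 to 97572703, plus strand), followed by the related genes Kera and Epyc. On chromosome 1, Prelp (ENSMUSG00000041577, 133910304 to 133921414, minus strand) and Fmod (ENSMUSG00000041559, 134037254 to 134048277, plus strand) lie 115839 bases apart, next to Optc. On chromosome 13, the related gene Ecm2 is followed by Aspn (ENSMUSG00000021388, 49544443 to 49567565), Omd (ENSMUSG00000048368, 49582462 to 49592822) and Ogn (ENSMUSG00000021390, 49608046 to 49624501), the whole row on the plus strand, and the protein-coding gene Cenpp runs across Aspn, Omd and Ogn on the opposite strand. Bgn (ENSMUSG00000031375, 73483602 to 73495933, plus strand) stands alone on chromosome X. Exons of Prelp overlap the antisense gene Gm15851 over 9.68% of their length and those of Aspn overlap Cenpp over 0.297%. The strand setting of the counting is not given in the sources used here, so reads from those stretches cannot be told apart and both genes' counts are less certain.

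RefSeq promoter sequences (assembly GRCm38.p6) matched 6 of the 8 genes, Bgn, Aspn, Fmod, Prelp, Omd and Ogn. The 250 bases before the transcription start are shown for Bgn (chrX:73483351-73483600) and Fmod (chr1:134037004-134037253), which were above 1 CPM (reads relative to the size of the library) in every E9.5 library, and for Ogn (chr13:49607765-49608014) and Aspn (chr13:49544193-49544442), which were below 1 CPM there. All 4 read 5′ to 3′ on the plus strand, and capitals mark matches on either strand to TATAAA (the TATA box core), GGGCGG (the GC box core) and GGAATG (a core bound by TEAD factors).
Bgn: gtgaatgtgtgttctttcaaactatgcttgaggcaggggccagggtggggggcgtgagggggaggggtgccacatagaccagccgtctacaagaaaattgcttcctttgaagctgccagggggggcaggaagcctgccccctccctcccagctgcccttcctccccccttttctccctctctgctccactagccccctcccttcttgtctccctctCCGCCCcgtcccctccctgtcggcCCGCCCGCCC
Fmod: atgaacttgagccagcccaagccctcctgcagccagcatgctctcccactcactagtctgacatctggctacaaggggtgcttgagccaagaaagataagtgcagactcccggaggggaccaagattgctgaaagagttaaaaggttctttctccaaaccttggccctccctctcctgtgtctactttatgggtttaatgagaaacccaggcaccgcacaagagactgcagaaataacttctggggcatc
Ogn: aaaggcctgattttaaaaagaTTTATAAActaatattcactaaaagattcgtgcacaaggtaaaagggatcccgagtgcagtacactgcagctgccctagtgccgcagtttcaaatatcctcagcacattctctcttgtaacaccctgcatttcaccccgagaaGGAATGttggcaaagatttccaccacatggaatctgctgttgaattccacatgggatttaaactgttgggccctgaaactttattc
Aspn: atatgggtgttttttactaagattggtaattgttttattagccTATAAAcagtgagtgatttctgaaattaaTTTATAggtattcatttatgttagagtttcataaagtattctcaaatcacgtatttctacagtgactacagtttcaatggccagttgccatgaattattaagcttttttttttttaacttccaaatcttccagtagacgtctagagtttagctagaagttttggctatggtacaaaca
Bgn held 3 matches to GGGCGG, beginning 34, 10 and 6 bases before the start, the last 2 overlapping. Ogn held an overlapping pair of TATAAA matches on opposite strands, 229 and 227 bases before the start, and GGAATG at 86 bases, while Aspn held TATAAA at 207 and 178 bases. None of these motifs was in the windows of Fmod, Prelp or Omd. Among 32841 mouse promoter windows of the same length, 12.4% held TATAAA, 32.7% GGGCGG and 12.6% GGAATG. The E-box CANNTG, which is not in capitals, was present in the windows of Bgn, Fmod, Ogn and Aspn and in 66.2% of all windows. CpG pairs numbered 7 in Bgn, 5 in Prelp, 4 in Ogn, 2 each in Fmod and Aspn and 1 in Omd, beside a median of 6 over all windows. The matches are letters in a window and were not tied to binding of any factor.

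Library totals were between 30744015 and 45646538 counts, and levels are CPM of TMM-scaled library size. Heart muscle markers (Myh6, Myh7, Tnnt2, Actc1, Nkx2-5, Myl7 and Myl2) summed to between 22756 and 40899 CPM in every library, and none of them was at 0. Another feature sets libraries apart: 8 transcripts typical of macrophages summed to 0.582 to 2.75 CPM in 5 libraries (E9.5 replicates 2 and 3, E10.5 replicates 1 and 2, E12.5 replicate 4) and to 341 to 689 CPM in the other 13. The 5 are called macrophage-poor and the 13 macrophage-rich here, and fold changes within each set are given beside the pooled ones up to E12.5. These names stand for the 8 transcripts only, and the macrophage content of the hearts was not measured. Macrophage-rich libraries number 1 at E9.5 and macrophage-poor ones 1 at E12.5, so a test within a set assumes that the lone library varies like those of other stages. The part of these transcripts in the results was not tested.

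Over the whole course studied, most of these proteoglycan genes rose many-fold. Lum was 168-fold higher at E16.5 than at E9.5, Aspn 152-fold, Prelp 116-fold, Ogn 111-fold, Dcn 73.7-fold, Fmod 20.7-fold and Bgn 14.1-fold. Omd did not pass the filter on low counts and was not tested. The 7 genes tested passed in this comparison (edgeR adjusted p from 5.22e-14 for Ogn to 1.15e-10 for Dcn), in which 32.1% of all 18885 genes tested were called higher and 32.8% lower. Their median log2 fold change was 6.79, beside -0.01 for all genes tested. For these 7 genes no E16.5 library overlapped an E9.5 library. The share of all genes tested with such a separation was not counted, here or for the neighbouring stages below. Within the macrophage-rich libraries the log2 fold changes were 7.51 for Lum, 8.06 for Aspn, 6.05 for Prelp, 6.23 for Ogn, 5.50 for Dcn, 4.43 for Fmod and 4.08 for Bgn, and each was called. In bulk RNA, more cells of a type and more RNA per cell cannot be told apart.

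**Figure D1:**
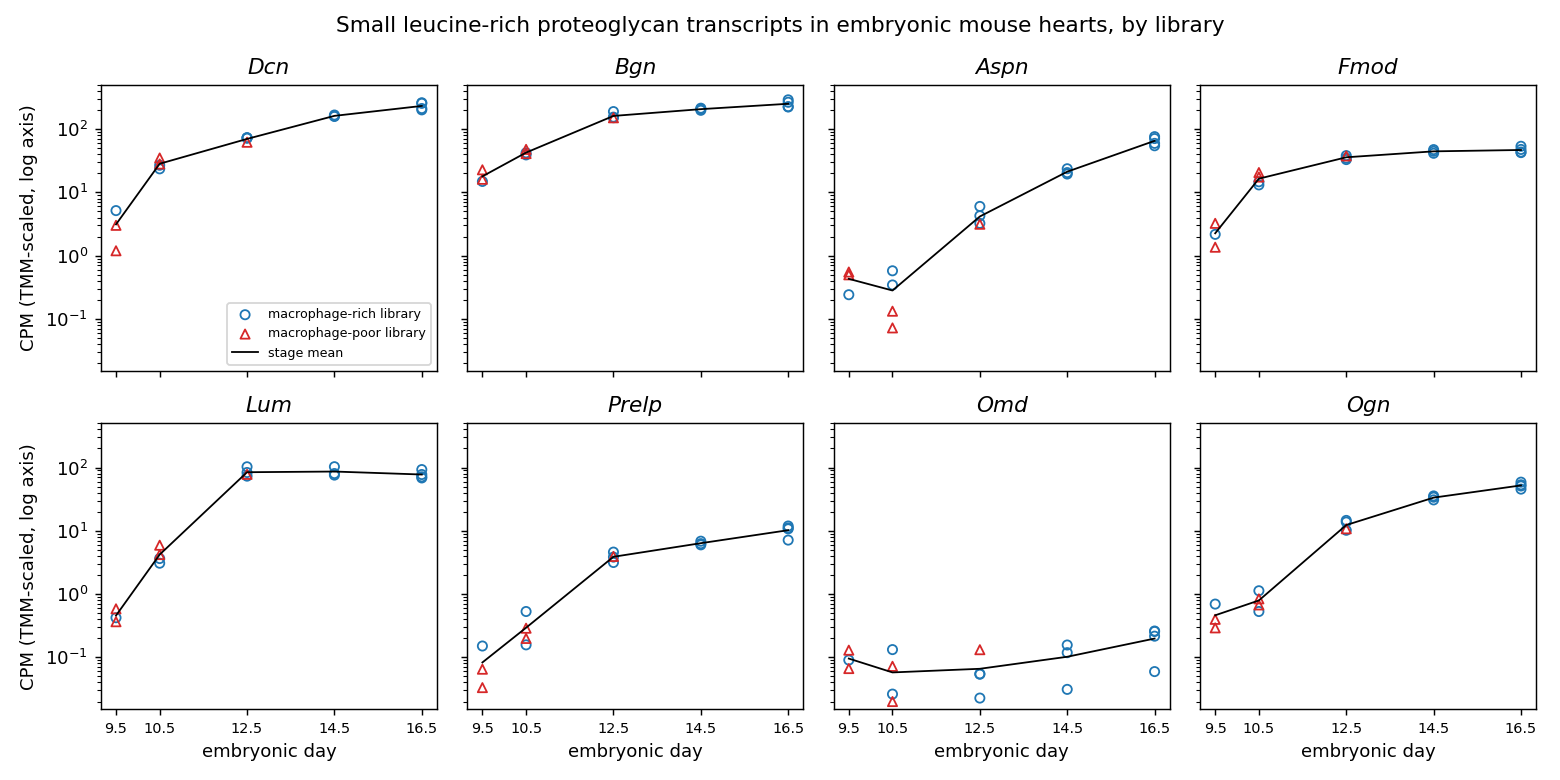
Level of each gene in the 18 libraries, in TMM-scaled CPM on a log axis against embryonic day, with circles for macrophage-rich libraries, triangles for macrophage-poor libraries and a line through the stage means. An Omd count of 0 at E10.5 is drawn at the bottom of its panel (0.02 CPM); Dcn and Bgn end at 202 to 291 CPM, while no Omd library exceeds 0.260 CPM.

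Among the class I genes, Bgn, which tunes collagen assembly and is released as a danger signal, was the best expressed of the 8 at the first stage. Bgn stood at 14.9, 22.8 and 16.1 CPM in the E9.5 libraries, at 41.1, 47.9, 39.2 and 42.3 CPM at E10.5, then at 189.6, 152, 155 and 151 CPM at E12.5, later at 214, 198 and 208 CPM at E14.5 and lastly at 291, 227, 266 and 224 CPM at E16.5. The libraries of neighbouring stages did not overlap in any interval. The log2 fold change was 1.25 ± 0.133 (SE) for E10.5 with E9.5 (edgeR adjusted p = 2.52e-06) and 1.93 ± 0.120 for E12.5 with E10.5 (edgeR adjusted p = 6.77e-10). Later steps were 0.36 ± 0.124 for E14.5 with E12.5 (edgeR adjusted p = 0.0592) and 0.28 ± 0.125 for E16.5 with E14.5 (edgeR adjusted p = 0.124). Neither passed alone, but across both intervals together Bgn rose by 0.64 ± 0.115 (edgeR adjusted p = 0.000165). The step to E14.5 did pass without replicate 1 of E12.5, the library at 189.6 CPM (0.44, edgeR adjusted p = 0.0270).

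Dcn encodes decorin, a collagen-binding proteoglycan that also sequesters TGF-beta. Dcn stood at 5.16, 3.02 and 1.19 CPM at E9.5, then at 28.1, 35.01, 23.6 and 26.9 CPM at E10.5, then at 72.2, 73.3, 72.8 and 62.1 CPM at E12.5, later at 167, 159 and 160.4 CPM at E14.5 and lastly at 256, 202, 261 and 212 CPM at E16.5. Every stage lay wholly above the one before. Dcn rose at E10.5 against E9.5 by 3.17 ± 0.291 on the log2 scale (edgeR adjusted p = 2.55e-06), at E12.5 against E10.5 by 1.30 ± 0.220 (edgeR adjusted p = 0.000262) and at E14.5 against E12.5 by 1.21 ± 0.230 (edgeR adjusted p = 0.00217). The step of 0.52 ± 0.233 from the last pair of stages, E16.5 with E14.5, did not pass (edgeR adjusted p = 0.137), although it did among the macrophage-rich libraries alone, which hold every library of both stages (0.52, edgeR adjusted p = 0.000279). The spread between replicates was widest at E9.5, where the 3 libraries gave 171, 93 and 36 counts, and without replicate 1 of E9.5 the first step was 3.76 (edgeR adjusted p = 2.35e-07).

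Aspn, whose protein competes with decorin for collagen and binds TGF-beta, was called higher in each of the last 3 intervals. Aspn stood at 0.241, 0.551 and 0.498 CPM at E9.5, then at 0.133, 0.0721, 0.344 and 0.577 CPM at E10.5, then at 6.00, 4.27, 3.24 and 3.14 CPM at E12.5, later at 23.7, 19.5 and 20.6 CPM at E14.5 and lastly at 76.1, 54.6, 71.1 and 59.6 CPM at E16.5. The E10.5 and E9.5 libraries overlapped, and no later pair of neighbouring stages did. The first interval gave a log2 fold change of -0.64 ± 0.564 (edgeR adjusted p = 0.500), with 44 counts in all at E10.5 against 40 at E9.5. Within the macrophage-poor libraries Aspn was lower at E10.5 (-2.28, edgeR adjusted p = 0.00266), and within the macrophage-rich ones the value was 0.93 (edgeR adjusted p = 0.574). Aspn then rose at each step, by 3.91 ± 0.366 at E12.5 against E10.5 (edgeR adjusted p = 5.94e-07), by 2.36 ± 0.261 at E14.5 against E12.5 (edgeR adjusted p = 1.75e-05) and by 1.62 ± 0.255 at E16.5 against E14.5 (edgeR adjusted p = 0.000380). Without replicate 4 of E10.5 the step at E12.5 was 4.52 (edgeR adjusted p = 2.55e-07). E16.5 with E12.5 came to a 15.7-fold rise.

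Among class II genes, Fmod, which encodes a keratan sulphate proteoglycan of collagen fibrils, was called higher in the first 2 intervals between neighbouring stages. Fmod stood at 2.17, 3.24 and 1.36 CPM at E9.5, then at 17.5, 20.6, 13.1 and 14.7 CPM at E10.5, then at 33.0, 38.2, 34.8 and 37.7 CPM at E12.5, later at 44.7, 41.6 and 47.5 CPM at E14.5 and lastly at 47.8, 42.6, 53.6 and 43.5 CPM at E16.5. The E16.5 libraries overlapped the E14.5 libraries, and the earlier neighbouring stages did not overlap. Fmod rose by 2.87 ± 0.206 on the log2 scale at E10.5 against E9.5 (edgeR adjusted p = 7.30e-08) and by 1.12 ± 0.155 at E12.5 against E10.5 (edgeR adjusted p = 2.02e-05). For E14.5 with E12.5 the value was 0.31 ± 0.163 (edgeR adjusted p = 0.231) and for E16.5 with E14.5 it was 0.07 ± 0.163 (edgeR adjusted p = 0.806). E16.5 with E12.5 passed narrowly at 0.38 ± 0.152 (edgeR adjusted p = 0.0491), and the call was lost when any single library of either stage was left out (edgeR adjusted p from 0.0514 to 0.140) and with the replicate block (0.39, edgeR adjusted p = 0.0638).

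Lum, the gene of lumican, a keratan sulphate proteoglycan known from the cornea and from heart valves and stroma, had the largest log2 fold change of the 7 genes in any interval between neighbouring stages. Changes are not scaled to the length of the interval, and the first interval is shorter than the others. Lum stood at 0.423, 0.584 and 0.365 CPM at E9.5, then at 5.92, 4.21, 3.07 and 3.64 CPM at E10.5, then at 103, 83.4, 73.1 and 78.1 CPM at E12.5, later at 103, 80.3 and 75.9 CPM at E14.5 and lastly at 77.5, 68.5, 92.9 and 71.4 CPM at E16.5. Libraries from E12.5 onwards overlapped from stage to stage, and all of them lay above every E10.5 library. The log2 fold change was 3.20 ± 0.302 for E10.5 with E9.5 (edgeR adjusted p = 1.61e-06) and 4.31 ± 0.184, a 19.9-fold rise, for E12.5 with E10.5 (edgeR adjusted p = 2.74e-11). Afterwards it was 0.04 ± 0.166 for E14.5 with E12.5 (edgeR adjusted p = 0.922) and -0.16 ± 0.166 for E16.5 with E14.5 (edgeR adjusted p = 0.564). E16.5 with E12.5 gave -0.12, with a 95% interval from -0.42 to 0.18 (edgeR adjusted p = 0.567).

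Prelp encodes a class II protein that ties collagen to heparan sulphate of basement membranes. Prelp stood at 0.151, 0.0649 and 0.0332 CPM at E9.5, then at 0.199, 0.289, 0.530 and 0.157 CPM at E10.5, then at 4.60, 3.84, 3.15 and 3.93 CPM at E12.5, later at 5.99, 6.26 and 6.85 CPM at E14.5 and lastly at 11.9, 10.7, 11.1 and 7.13 CPM at E16.5. Its stages did not overlap, although E9.5 rested on 8 counts in all and E10.5 on 47. The ratio of those sums per library size was 3.40 (exact 95% interval 1.59 to 8.32, counting error only). Prelp rose by 1.74 ± 0.483 on the log2 scale at E10.5 against E9.5 (edgeR adjusted p = 0.0160) and by 3.72 ± 0.287 at E12.5 against E10.5 (edgeR adjusted p = 8.56e-09). The first of these calls was lost with limma-voom (1.63, adjusted p = 0.14), without replicate 2 of E9.5 (1.59, edgeR adjusted p = 0.0669), without replicate 3 of E9.5 (1.39, edgeR adjusted p = 0.0951) or without replicate 3 of E10.5 (1.31, edgeR adjusted p = 0.0663). Without replicate 1 of E9.5, the library at 0.151 CPM, the same step was 2.49 (edgeR adjusted p = 0.00864) and E16.5 with E9.5 was 7.61, against 6.86 over all libraries. For E14.5 with E12.5 the value was 0.71 ± 0.246 (edgeR adjusted p = 0.0570) and for E16.5 with E14.5 it was 0.68 ± 0.248 (edgeR adjusted p = 0.0618), while E16.5 with E12.5 passed at 1.40 ± 0.232 (edgeR adjusted p = 6.49e-05). Without replicate 4 of E16.5 the last interval passed as well (0.82, edgeR adjusted p = 0.0352).

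Omd, an osteoblast proteoglycan gene that lies between Aspn and Ogn, stayed near the limit of detection. Counts were 3, 4 and 2 at E9.5, then 0, 3, 5 and 1 at E10.5, then 2, 2, 1 and 5 at E12.5, followed by 5, 7 and 1 at E14.5 and lastly 8, 2, 7 and 8 at E16.5. Neighbouring stages overlapped throughout. A count of 0 in the E10.5 library allows a level of up to 0.0670 CPM. Summed over libraries, 25 counts at E16.5 against 9 at E9.5 gave a ratio of 2.04 per library size (exact 95% interval 0.922 to 4.97, counting error only). With no filter on low counts the log2 fold change of E16.5 with E9.5 was 1.06 ± 0.772 (edgeR adjusted p = 0.335), and no comparison called Omd. A difference of Omd between E16.5 and E9.5 was not detectable at this depth, as the exact interval of the ratio spans 1. The largest value without the filter was that of E16.5 with E12.5, 1.56 ± 0.72 (edgeR adjusted p = 0.132), for which no exact interval was computed.

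Ogn, the class III gene of osteoglycin or mimecan, was also called higher in each of the last 3 intervals. Ogn stood at 0.694, 0.292 and 0.398 CPM at E9.5, then at 0.839, 0.673, 0.530 and 1.13 CPM at E10.5, then at 13.8, 14.6, 10.2 and 10.8 CPM at E12.5, later at 35.6, 34.0 and 30.8 CPM at E14.5 and lastly at 58.7, 45.6, 53.3 and 51.0 CPM at E16.5. Only the E10.5 and E9.5 libraries overlapped, through replicate 1 of E9.5. Ogn rose at E12.5 against E10.5 by 3.95 ± 0.192 on the log2 scale, or 15.5-fold (edgeR adjusted p = 3.89e-11), at E14.5 against E12.5 by 1.44 ± 0.158 (edgeR adjusted p = 6.26e-06) and at E16.5 against E14.5 by 0.64 ± 0.158 (edgeR adjusted p = 0.00787). For E10.5 with E9.5 the value was 0.76 ± 0.301 and did not pass (edgeR adjusted p = 0.0906). It passed without replicate 1 of E9.5 (1.21, edgeR adjusted p = 0.0215) and without replicate 3 of E10.5 (0.90, edgeR adjusted p = 0.0415).

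Taken interval by interval, E10.5 with E9.5 called 5 of the 7 genes tested higher and none lower, where 10.6% of all genes were called higher and 7.62% lower. The 5 were Dcn, Bgn, Fmod, Lum and Prelp, and the median over the 7 was 1.74 (log2), beside 0.00 for all genes. Within the macrophage-poor and macrophage-rich libraries the values were 3.92 and 2.29 for Dcn, 1.22 and 1.45 for Bgn, 3.07 and 2.68 for Fmod and 3.43 and 2.99 for Lum, each called. Prelp was called within the macrophage-poor libraries (2.25) but not within the macrophage-rich ones (1.17, edgeR adjusted p = 0.427). Ogn likewise passed within the macrophage-poor libraries (1.16, edgeR adjusted p = 0.0167) and not within the macrophage-rich ones (0.26, edgeR adjusted p = 0.806). In this interval far more of all genes tested were called within the macrophage-poor libraries than within the macrophage-rich ones. A pass within the macrophage-poor libraries only, as for Prelp and Ogn, and for Aspn as lower, is therefore not particular to these genes. The differences between the sets were not tested.

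E12.5 with E10.5 called the 7 genes tested higher, where 20.0% of all genes were called higher and 18.1% lower, and their median was 3.72 beside 0.01. The genes lay in separate ranges, from 1.12 to 1.93 for Fmod, Dcn and Bgn and from 3.72 to 4.31 for Prelp, Aspn, Ogn and Lum. Values within the macrophage-poor and macrophage-rich libraries were 3.94 and 4.68 for Lum, 3.82 and 3.94 for Ogn, 4.88 and 3.27 for Aspn, 4.01 and 3.48 for Prelp and 1.77 and 2.02 for Bgn, each called. Dcn (1.53) and Fmod (1.34) were called within the macrophage-rich libraries, but not within the macrophage-poor ones (0.98 and 0.99, edgeR adjusted p = 0.151 and 0.128).

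After E12.5 fewer of the genes were called than at E12.5 against E10.5. E14.5 with E12.5 called Dcn, Ogn and Aspn, 3 of 7, where 6.29% of all genes were called higher and 8.55% lower, with a median of 0.71 beside 0.00. E16.5 with E14.5 called Ogn and Aspn, 2 of 7, where 10.1% of all genes were called higher and 8.74% lower, with a median of 0.52 beside -0.02. E16.5 with E12.5 called 6 of 7, all but Lum, where 20.2% of all genes were called higher and 23.2% lower, with a median of 1.40 beside -0.03. Within the macrophage-rich libraries the E14.5 values were 1.16 for Dcn, 1.39 for Ogn and 2.25 for Aspn, each called, and Bgn (0.33), Fmod (0.34) and Prelp (0.72) passed as well. For the last interval the count of 2 became 4 with limma-voom or with only the stages compared, and 5 within the macrophage-rich libraries. With limma-voom, or with only the stages compared, the first interval held 4 calls, so the later intervals held no fewer. With only the stages compared, however, Prelp had too few counts for the filter in the first interval and was not tested there. No comparison called any of the 7 lower over all libraries.

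**Figure D2:**
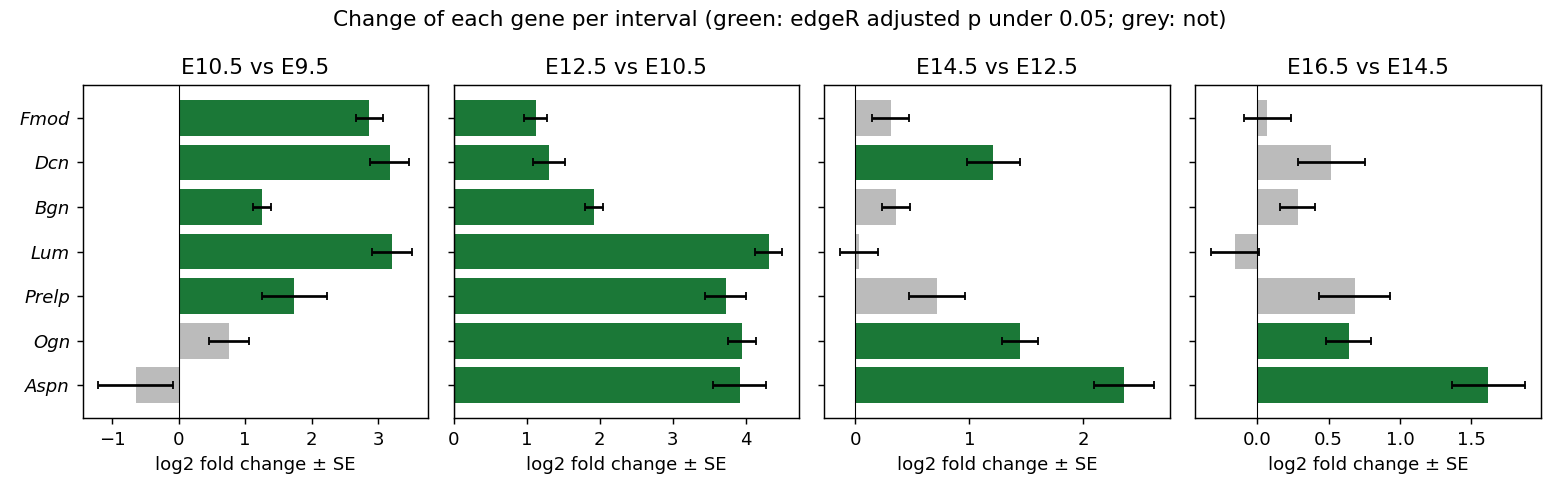
Log2 fold change ± SE (edgeR) of the 7 tested genes in the 4 intervals between neighbouring stages, each panel with its own horizontal scale. Green bars passed an adjusted p of 0.05: Lum, Dcn and Fmod have the longest bars in the first panel, Lum, Ogn, Aspn and Prelp in the second, and Ogn and Aspn stay green to the last.

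The share of each gene's whole log2 rise that fell into each interval describes this order. By E10.5 Fmod had covered 65.6% and Dcn 51.1% of their rise, Lum 43.3%, Bgn 32.7%, Prelp 25.4% and Ogn 11.2%. The interval to E12.5 held 58.3% for Lum, 58.2% for Ogn, 54.3% for Prelp, 54.0% for Aspn and 50.5% for Bgn, but 25.7% for Fmod and 21% for Dcn. The intervals to E14.5 and E16.5 held 32.5% and 22.3% for Aspn, and 7.13% and 1.65% for Fmod. Neighbours in a cluster had different shares: Fmod and Prelp on chromosome 1 differed in their first interval (65.6% and 25.4%), as did Dcn and Lum on chromosome 10 in their later ones (19.5% and 0.486% to E14.5). These shares are descriptions that do not allow for the shorter first interval, and the differences between genes were not tested. Over the 18 libraries, Pearson correlations of log2 CPM between the 7 genes ran from 0.70 for Fmod with Aspn to 0.98 for Bgn with Lum, as a description of libraries that share the order of stages.

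Levels of different genes were compared per kilobase of merged exon length, and most shares below differ by at least their SD with another length. The summed level of the 8 genes was 4.77 ± 1.05 CPM per kilobase at E9.5 (SD, n = 3), then 19.1 ± 2.51 at E10.5 (n = 4), then 91.5 ± 9.30 at E12.5 (n = 4), 134 ± 9.22 at E14.5 (n = 3) and 178 ± 21.4 at E16.5 (n = 4). Bgn made up 61.9 ± 8.26% of it at E9.5, then 36.8 ± 2.44% at E10.5, then 29.0 ± 1.30% at E12.5, followed by 25.3 ± 1.05% at E14.5 and lastly 23.2 ± 0.978% at E16.5. Its share was thus smaller at each later stage while its level was higher. Lum made up 3.90 ± 0.153%, 8.98 ± 2.21%, 37.5 ± 1.96%, 26.2 ± 2.61% and 17.8 ± 1.29% over the same stages, with its largest share at E12.5. Fmod and Dcn were at 13.9 ± 2.95% and 11.1 ± 7.19% at E9.5, at 25.96 ± 1.81% and 25.4 ± 1.12% at E10.5, and at 7.98 ± 0.417% and 22.4 ± 0.280% at E16.5.

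Aspn held 3.91 ± 1.66% at E9.5, then 0.667 ± 0.560% at E10.5 and 1.90 ± 0.400% at E12.5, followed by 6.71 ± 0.241% at E14.5 and 15.6 ± 0.687% at E16.5. Ogn held 3.95 ± 1.97%, 1.63 ± 0.561%, 5.24 ± 0.668%, 9.70 ± 0.539% and 11.4 ± 0.694% at those stages. Prelp never exceeded a mean of 1.59% and Omd never 0.875%. In order of level at E16.5 per exon length, Bgn (41.3 ± 5.27 CPM per kilobase) and Dcn (39.9 ± 5.19) differed by less than their spread, as did Lum (31.7 ± 4.44) and Aspn (27.8 ± 4.22). Ogn (20.3 ± 2.13), Fmod (14.2 ± 1.53), Prelp (2.83 ± 0.585) and Omd (0.0880 ± 0.0420) followed. The order was the same per coding length and per longest transcript, but the gaps depended on the length. Per longest transcript Bgn was at 94.5 ± 12.1 and Dcn at 49.6 ± 6.46 CPM per kilobase, and Bgn made up 39.0 ± 1.30% of the sum. Per coding length Lum was at 76.5 ± 10.7 and Aspn at 58.4 ± 8.88 CPM per kilobase. At E12.5 Lum (34.4 ± 5.30) ranked above Bgn (26.5 ± 3.05) and Dcn (12.01 ± 0.917) per exon length. Per coding length the order there was Bgn, Lum, Dcn, with 146 ± 16.8 CPM per kilobase for Bgn and 83.2 ± 12.8 for Lum, so the place of Lum at E12.5 depends on the length used.

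**Figure D3:**
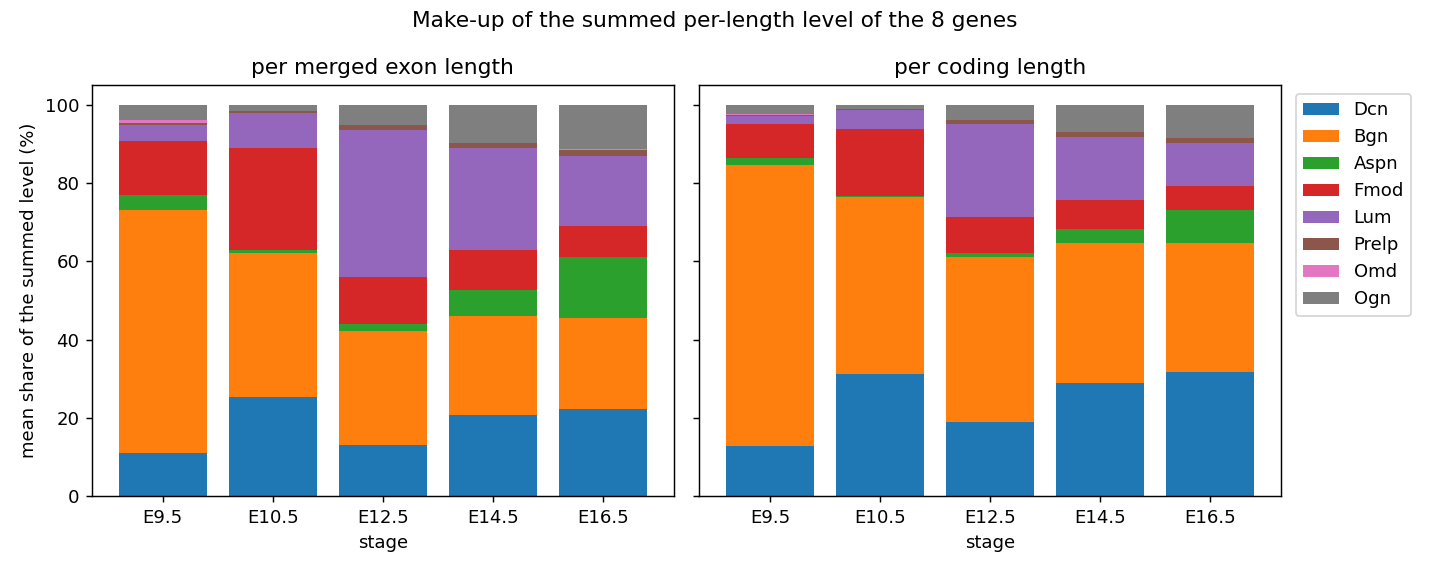
Mean share (%) of each gene in the summed per-length level of the 8 genes at each stage, per kilobase of merged exons on the left and of coding sequence on the right. On the left the Bgn share is 23.2% at E16.5, against 61.9% at E9.5, Lum is widest at E12.5 (37.5%) and Aspn reaches 15.6% at E16.5; on the right Bgn keeps the widest band at every stage.

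The other 10 listed genes of the leucine-rich proteoglycan family were looked at beside them, of which 8 passed the filter on low counts. For E16.5 with E9.5, 3 of those 8 were called higher and 2 lower, with a median of 0.75, near the 32.1% and 32.8% of all genes. The counts of the lists that follow stand against the same shares, and those for E12.5 with E10.5 against 20.0% higher and 18.1% lower. Ecm2, the neighbour of Aspn, stood at 0.305 ± 0.112 CPM at E9.5, then 1.13 ± 0.115 at E10.5, then 5.52 ± 0.597 at E12.5, followed by 11.3 ± 1.08 at E14.5 and lastly 14.8 ± 1.80 at E16.5. It was called higher at E16.5 than at E9.5 (5.57 ± 0.208, edgeR adjusted p = 3.19e-14). Podn, the podocan gene, had a dip at E14.5, with means of 0.431, 0.976, 2.11, 0.856 and 3.04 CPM over the 5 stages. Its 3 E14.5 libraries (0.900, 0.671 and 0.996 CPM) lay below all 4 E12.5 libraries (2.47, 2.03, 2.54 and 1.40 CPM) and gave a log2 fold change of -1.31 ± 0.266 (edgeR adjusted p = 0.00214), and the step to E16.5 was a rise of 1.83 ± 0.269 (edgeR adjusted p = 8.67e-05).

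Epyc, the epiphycan gene at the end of the Dcn cluster, had 0 counts in the 3 E9.5 libraries and 77 counts in all at E16.5, at least 18.9-fold higher against a floor of 3 counts over the E9.5 group. Its call at E16.5 against E9.5 had an edgeR adjusted p of 2.17e-05. Tsku, a secreted Wnt and TGF-beta inhibitor, was at 12.1 ± 1.16 CPM at E16.5 and 14.96 ± 1.74 CPM at E9.5 (-0.31 ± 0.1004, edgeR adjusted p = 0.0109). Optc was at 0.434 ± 0.171 CPM at E16.5 and 0.884 ± 0.162 CPM at E9.5 (-1.03 ± 0.336, edgeR adjusted p = 0.0118). Chadl (1.29 CPM), Nyx (0.567 CPM) and Chad (0.500 CPM) were low at E16.5 and were not called against E9.5, though Chadl was called lower at E10.5 than at E9.5 (-1.02, edgeR adjusted p = 0.0388). Kera and Podnl1 were not tested, with at most 8 counts of Kera and 5 of Podnl1 in any library.

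The proteins bind collagen, and 12 of 17 genes of fibrillar collagens and assembly partners were called higher at E16.5 than at E9.5 and 2 lower, with a median of 3.72. The 2 lower were Col2a1 (-7.13 ± 0.196, edgeR adjusted p = 4.17e-15), the largest change of the list, and Fn1 (-1.48 ± 0.199, edgeR adjusted p = 5.57e-06). Lox, which cross-links collagen, was at 83.3 ± 6.25 CPM at E16.5 and 1.30 ± 0.0344 CPM at E9.5 (6.00 ± 0.157, edgeR adjusted p = 5.37e-16). Col14a1, a fibril-associated collagen chain, was at 99.3 ± 12.1 CPM at E16.5 and 1.57 ± 0.130 CPM at E9.5 (5.99 ± 0.181, edgeR adjusted p = 3.31e-15), and Col6a2 at 298 ± 30.6 CPM at E16.5 and 31.2 ± 2.42 CPM at E9.5 (3.25 ± 0.102, edgeR adjusted p = 4.17e-15). For E12.5 with E10.5, 12 were called higher and 2 lower, with a median of 1.05, and Lox (3.77) and Col6a3 (3.36) had the smallest p.

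The enzymes that build the sugar chains showed smaller median changes than the 7 genes tested. Of 7 enzymes of the linkage region between core protein and chain, 2 were called higher and 1 lower at E16.5 than at E9.5, with a median of 0.10, and neither count exceeded the share of all genes (32.1% higher and 32.8% lower). Xylt1, a gene of an enzyme that starts the chain, fell (-0.48 ± 0.107, edgeR adjusted p = 0.000631), while the related gene Xylt2 was not called (0.04, edgeR adjusted p = 0.713). The xylose kinase gene Fam20b (0.30) and the galactosyltransferase gene B4galt7 (0.25) rose. Of 15 tested genes of chondroitin and dermatan sulphate synthesis, 10 were called higher and 3 lower, with a median of 0.42. The sulphotransferase genes Chst3 (1.81 ± 0.213, edgeR adjusted p = 3.44e-07) and Chst11 (0.91 ± 0.120, edgeR adjusted p = 1.62e-06) rose. Dse, a gene of an epimerase that turns chondroitin into dermatan sulphate, fell to 26.7 ± 1.89 CPM at E16.5, against 48.0 ± 0.585 CPM at E9.5 (-0.84 ± 0.0805, edgeR adjusted p = 1.89e-08). Dsel, the related epimerase gene of the list, was called higher (0.29 ± 0.122, edgeR adjusted p = 0.044). For E12.5 with E10.5 this list had 6 higher and 2 lower, among them Chst14 (0.43) and Csgalnact1 (0.72), both higher.

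Of 6 tested keratan sulphate genes, 4 were called higher at E16.5 than at E9.5 and none lower, with a median of 0.67. The galactose sulphotransferase gene Chst1 was at 9.43 ± 0.942 CPM at E16.5 and 1.34 ± 0.489 CPM at E9.5 (2.80 ± 0.215, edgeR adjusted p = 8.31e-10). B4galt1 (0.87) and Chst2 (0.48) rose as well, and for E12.5 with E10.5 B4galt1 (0.21) and Chst1 (0.65) were the 2 genes called. Of 5 genes of sulphate donor supply found, 3 were called higher and 1 lower, with a median of 0.22. Papss2 (0.94) and Papss1 (0.22), which make the sulphate donor, rose and the sulphate transporter gene Slc26a2 fell (-0.99 ± 0.119, edgeR adjusted p = 5.05e-07). For E12.5 with E10.5 the values were 0.89 for Papss2 and -0.42 for Slc26a2, both called. Papss2 was at 6.58 ± 2.04 CPM at E9.5, at 50.2 ± 12.9 CPM at E12.5 and at 12.6 ± 1.48 CPM at E16.5. For E16.5 with E12.5, 3 of the 5 genes were called lower and 0 higher, where 23.2% of all genes were called lower and 20.2% higher.

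Growth factors and receptors that these proteoglycans bind held calls in both directions, as all genes did (32.1% higher and 32.8% lower). Of 10 growth factor genes, 5 were called higher and 3 lower at E16.5 than at E9.5, with a median of 1.20, the lower count being near the share of all genes. Pdgfb was at 43.1 ± 1.28 CPM at E16.5 and 4.46 ± 0.543 CPM at E9.5 (3.27 ± 0.142, edgeR adjusted p = 2.49e-13), and Tgfb3 rose by 2.09 ± 0.106 (edgeR adjusted p = 2.08e-12). Bmp2 was at 13.8 ± 2.06 CPM at E16.5 and 76.96 ± 11.5 CPM at E9.5 (-2.48 ± 0.119, edgeR adjusted p = 9.31e-13). Pdgfb (1.56) and Tgfb3 (1.12) were called in E12.5 with E10.5 too. Of 12 receptor genes, 5 were called higher and 5 lower, with a median of 0.02, both counts near the share of all genes. The TGF-beta receptor gene Tgfbr2 (1.98 ± 0.0936, edgeR adjusted p = 7.81e-13) and Tlr4 (1.67 ± 0.191, edgeR adjusted p = 2.42e-07), a receptor of free biglycan, rose, and Tgfbr1 fell (-0.92 ± 0.101, edgeR adjusted p = 1.42e-07). In E12.5 with E10.5, Tgfbr2 (0.79) was called higher and Erbb4 (-0.90) lower.

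Of 9 tested genes of proteases that cleave these proteins and of their helpers, 6 were called higher at E16.5 than at E9.5 and none lower, with a median of 1.40. Adamts5, an aggrecanase gene, was at 17.9 ± 1.86 CPM at E16.5 and 4.02 ± 0.710 CPM at E9.5 (2.15 ± 0.140, edgeR adjusted p = 7.32e-11). Mmp2 (1.40 ± 0.103) and Pcolce (1.42 ± 0.106), an enhancer of the protease that removes propeptides, rose as well. For E12.5 with E10.5, Adamts5 (1.34) and Mmp2 (1.12) had the smallest p of 5 called higher. Mmp12 and Mmp13 in this list are among the transcripts that set the macrophage-poor libraries apart, and neither was called.

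**Figure D4:**
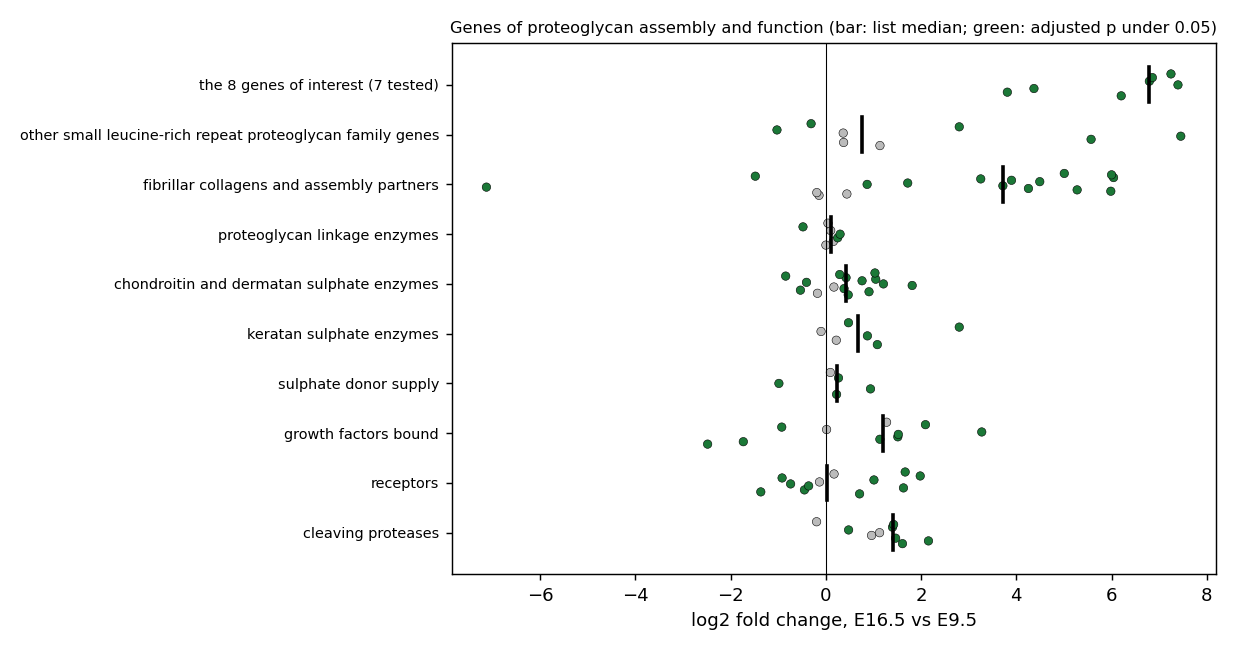
Log2 fold change of E16.5 with E9.5 for the 7 tested genes (top row) and for genes of related lists (one row each), with a black bar at each median and green for an edgeR adjusted p under 0.05. The point at 7.46 in the second row is Epyc, whose fitted value rests on 0 counts at E9.5; the top row has a median of 6.79, the collagens 3.72 and the linkage enzymes 0.10.

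Fibroblast markers were higher at the later stages as well. The summed level of 11 fibroblast markers, which share collagen genes and Lox with the collagen list, was 344 ± 59.9 CPM at E9.5, then 1064 ± 119 at E10.5, then 2982 ± 309 at E12.5, followed by 3902 ± 216 at E14.5 and lastly 5346 ± 486 at E16.5. Of these markers 9 were called higher at E16.5 than at E9.5 and none lower, with a median of 3.72. Of the 9 valve and cushion markers 2 were called higher and 7 lower, with a median of -1.69 and sums of 1467 to 1804 CPM at E9.5, then 1523 to 1810 at E10.5, then 744 to 832 at E12.5, followed by 334 to 483 at E14.5 and lastly 223 to 270 at E16.5. Epicardial markers summed to 280 to 305 CPM at E9.5, then 454 to 527 at E10.5 and 389 to 515 at E12.5, followed by 325 to 332 at E14.5 and 308 to 426 at E16.5. Of those 8 markers 4 were called higher at E16.5 than at E9.5 and 2 lower. Cartilage markers summed to 24.6 to 38.0 CPM at E16.5 and 638 to 978 CPM at E9.5, while 3 of the 6 tested were called higher and 2 lower, with a median of 0.53, so the sum and the median differ in direction. The 6 tendon and bone markers summed to 9.07 to 28.5 CPM at E16.5 and 1.17 to 17.1 CPM at E9.5, with the bone gene Ibsp at 0 in all libraries of E9.5, E10.5 and E14.5, and none of the 3 tested was called. The part of any of these cell types in the proteoglycan levels was not tested.

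Sums of the mural cell markers were 3758 to 4575 CPM at E9.5, then 2291 to 2559 at E10.5 and 1571 to 1728 at E12.5, followed by 1237 to 1365 at E14.5 and 1349 to 1587 at E16.5. Here too sum and median differ in direction, since 5 of the 9 were called higher at E16.5 than at E9.5 and 3 lower, with a median of 0.39. Endothelial markers summed to 716 to 855 CPM at E9.5, 795 to 894 at E10.5 and 906 to 1043 from E12.5 onwards, with 4 of 7 called higher at E16.5 than at E9.5 and 3 lower. Neural crest and Schwann cell markers summed to between 15.04 and 39.8 CPM in every library, with Foxd3 at 0 in all E10.5 libraries, and 4 of the 6 were called higher at E16.5 than at E9.5 and none lower.

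The genes with the most similar profile, by Pearson correlation of log2 CPM over the 18 libraries among 10993 genes of at least 5 CPM on average, differed from gene to gene. For Dcn they were Angptl7, Nfia and Dtx3l, each at 0.99, and for Bgn Adamts2, which encodes the enzyme that removes collagen amino propeptides (0.995), Antxr1 and Oplah. For Fmod they were B3gnt9, Cpt1a and Bcl11a, and those given for Lum are the protease gene Htra1 and Tox3. The closest to Ogn were the collagen gene Col6a6, Mlf1 and Cacna1g, the closest to Prelp were Eef1a2, Fcgrt and Nfix, and the closest to Aspn were Pdgfb, Galm and Fam78b. These correlations ran from 0.986 to 0.995 over libraries that share the order of stages. Correlations above 0.95 were common, from 137 genes for Fmod to 409 for Bgn.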

How the data were processed

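For each of 18 sequenced libraries of embryonic mouse hearts, the authors deposited a raw read count per Ensembl gene. Per the submitters' processing notes, Trimmomatic 0.36, STAR 2.5.2b, featureCounts and Subread 1.5.2 were used with builds GRCm38 and mm10; the strand setting and the annotation release used are not stated in these sources. Of 49315 identifiers, 48970 had a symbol and 49056 were in GENCODE M21, the source of coordinates and lengths. The 8 genes and all lists were chosen with earlier results of these data known.

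With edgeR 4.0.16 in R 4.3.3, filterByExpr by stage kept 18885 genes, libraries were scaled with TMM, and 1 robust quasi-likelihood model with stage as its only term was fitted to all 18 libraries. The threshold was an adjusted p of 0.05 (Benjamini-Hochberg, over all genes tested). The code was tested on simulated data. No libraries looked like duplicates: over the 24 within-stage pairs, chi-square divided by degrees of freedom was 6.06 to 79.8. The lowest values were those of pairs within a macrophage set, 7.03 at E9.5 and 7.53 and 6.06 at E10.5. Pairs across the sets at those stages gave 24.5 to 45.1. Libraries of a set at these stages may thus not be independent, and the stage-only model treats them as if they were. Library totals of 30744015 to 45646538 put the floor of 3 counts at 0.0657 to 0.0976 CPM. Intervals and floors cover counting error only. Levels between genes were divided by merged exon length, or by coding or longest-transcript length.

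Besides the 8 genes, the text names the related family genes, per pathway list the 3 genes with the smallest p for E16.5 with E9.5 and the 2 for E12.5 with E10.5, and the 3 most similar profiles per gene. Genes named for their overlap or cluster place are extra, as are Xylt2 and Dsel, named beside related genes of their lists. Col2a1 and Fn1 are extra too, named as the genes of the collagen list that were called lower. Some genes that these rules name are not reported here. The alternatives tried were DESeq2 1.42.0, limma-voom (limma 3.58.1), RLE size factors, unscaled library totals, library sizes without mitochondrial and globin genes, no low-count filter or one of 10 CPM in 3 libraries, only the stages compared, a replicate block, the macrophage set as a term, each set alone, libraries thinned to 30744015 counts and each replicate left out.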

Additional observations from a re-analysis of the deposited data

Results flagged for a closer look

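Each gene was checked in each stage with 4 libraries for a library far from the other 3, 24 groups in all, of which chance alone would flag about 1 in 20; 2 were picked out. Dcn at E12.5 had 62.09 CPM in replicate 4, below the 72.2 to 73.33 CPM of the other libraries, and that replicate is the macrophage-poor library of its stage. Bgn at E12.5 had 189.6 CPM in replicate 1, above the 151.2 to 154.7 CPM of the others. The cause of neither was tested.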

How the results depend on the processing

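The number of genes called higher stayed at 7 for E16.5 with E9.5 under every alternative run, and at 7 for E12.5 with E10.5 except for 5 within the macrophage-poor libraries. For E10.5 with E9.5 it lay between 4 and 6 (5 in the report), and for E16.5 with E12.5 it was 5 or 6. For E14.5 with E12.5, 3 genes were called higher, against 5 with library totals only, the 10 CPM filter, DESeq2, limma-voom or the macrophage set as a term, and 6 with only the stages compared or only macrophage-rich libraries. For the last interval 2 were called, against 4 with limma-voom or only the stages compared and 5 with only macrophage-rich libraries. Aspn alone made a call lower, 1 gene for E10.5 with E9.5 within the macrophage-poor libraries. Values of 3 genes changed sign: Aspn in that interval (0.93 within the macrophage-rich libraries), Lum for E14.5 with E12.5 (-0.0103 with the replicate block, -0.11 to 0.14 without single replicates) and Fmod for E16.5 with E14.5 (-0.0536 with library totals only, -0.0020 to 0.12 without single replicates). Same-numbered libraries showed no common direction of deviation (33 pairs, correlations -0.639 to 0.498, median -0.0205, 8 over 0.1). The largest values lay between stages that mix macrophage-poor and macrophage-rich libraries, so the check cannot tell whether the numbers pair them. With the replicate block the 4 neighbouring intervals called 5, 7, 3 and 2 genes higher and the whole course 7. With coding or longest-transcript length in place of exon length, most mean shares of the 8 genes at the 5 stages moved by at least their SD (62 values). The shares given per exon length therefore hold for that length only. The causes were not tested. Depth limits Omd, and Prelp and Aspn before E12.5.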
